A study of Mus musculus with 6 samples.

Results

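Cytosolic ribosomal proteins are the protein parts of the ribosome that translates nuclear-encoded mRNA. The array annotation gave 49 probe sets, for 35 of these genes, among its 12422 non-control probe sets. The members were chosen by symbol alone: a probe set with exactly 1 symbol, beginning with Rpl or Rps and a digit, or Rplp0, Rplp1, Rplp2 or Rpsa, without the S6 kinases and the pseudogenes. The large subunit had 22 probe sets for 17 genes and the small subunit 27 probe sets for 18 genes. A further 39 probe sets whose annotation lists a ribosomal protein gene beside other symbols were not members.

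Soleus, a slow postural muscle, was taken from male mice: 3 samples of C57BL/6 wild type and 3 samples of mice without estrogen receptor beta, the product of Esr2. The strain of the knockout, its type of deletion and the ages of the mice are not given in the sources used here. Total RNA of each sample was read on 1 Affymetrix mouse array, which reports a signal intensity per probe set. Whether the samples came from separate animals is not stated, so p-values measure the spread among these samples, which may be technical.

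The ribosome has a large subunit, which joins amino acids, and a small subunit, which decodes the mRNA. Each holds 1 copy of most of its proteins, and cells make the proteins in nearly matched amounts, partly because most of their mRNAs begin with a pyrimidine tract that places their translation under mTOR control. In muscle, ribosome content rises with growth and falls with wasting.

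The targeted gene could not check the labels, since the wild-type samples gave 2.2, 3.2 and 1.3 and the knockout samples 8.4, 3.9 and 6.2, at or under the floor of 7.8 applied here in 5 of the 6 samples. The slow-fibre markers Tnni1 (5789 to 8743 over the 6 arrays) and Myh7 (7235 to 9902 for its brighter probe set) were abundant in every sample. The 2% trimmed mean was 100.07 to 100.08 on every array. Replicate 2 of each group shares a sample-title prefix that the other 4 arrays do not have, and what it stands for is not given.

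The promoter table of RefSeq (GRCm38.p6) held 37 windows for 28 of the 35 genes, each running from 250 bases before to 50 after an annotated start. Windows of a gene with several starts can share sequence. A run of at least 6 C or T letters touching the 6 bases on either side of the start was present in 13 of the 37 (35.1%), against 22.0% of all 32851 windows. Annotated starts need not be the exact base at which transcription begins. The 5 windows printed here are shown because they display the tract that ribosomal protein mRNAs are known for. Each is 30 bases, 5′ to 3′ on the gene's strand, with the run in capitals and the annotated start at the sixteenth base.
Rpl7a, chr2:26910792-26910821, plus strand: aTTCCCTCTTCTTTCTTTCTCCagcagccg
Rps18, chr17:33955651-33955680, minus strand: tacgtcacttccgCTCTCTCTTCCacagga
Rps10, chr17:27635230-27635259, minus strand: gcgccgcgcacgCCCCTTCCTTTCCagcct
Rps24, chr14:24490663-24490692, plus strand: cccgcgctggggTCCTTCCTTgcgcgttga
Rps27, chr3:90213634-90213663, minus strand: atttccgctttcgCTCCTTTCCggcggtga

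The letters CCGGAAG, the core read by ETS family factors, were found on either strand (CTTCCGG on the other) in 12 of the 37 windows (32.4%), against 8.86% of all windows. The letters AAGATGGC, read by YY1, or GCCATCTT on the other strand, were in 7 windows (18.9%), against 2.75%. These 7 windows belonged to 5 genes, since overlapping windows of Rpl35a held the same site. TATAAA or its complement was in 4 (10.8%), against 13.6%. CTTCCGG and GCCATCTT can share letters with a pyrimidine run. These counts describe letters in a window and not binding. Of the ETS matches, 4 are shown, all of genes with a probe set higher in the knockout without overlap, as described below. Rpl6, likewise apart, also held the match, as did Rps10, Rps3a1 and Rps7, whose groups overlapped. The other genes with the match were Rpl38, Rpl39, Rpl39l and Rps27l, which had no tested probe set. The windows of Rplp0, Rps28 and Rpl22, which also had probe sets apart, did not hold it. Nor did those of Rpl10a, Rpl13a, Rpl37a, Rpl7a, Rps19, Rps24, Rps27, Rps3 and Rps4x, whose groups overlapped. Whether the match goes with the knockout difference was not tested. The match is in capitals.
Rpl41, chr10:128549207-128549236, minus strand: ctagtaaggcagCCGGAAGtcgctgtctcg
Rpl19, chr11:98026659-98026688, plus strand: gacttagcgtgaCTTCCGGctacccagagg
Rps18, chr17:33955723-33955752, minus strand: gagaagcaatttCCGGAAGtggacctccgg
Rpsa, chr9:120127566-120127595, plus strand: tcgccccagctaCTTCCGGcctggggtctg

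Of the 49 members, 28 were tested, having read above 39.4, the overall median, on 3 arrays or more: 14 of 22 large subunit and 14 of 27 small subunit probe sets, for 12 genes of each subunit. The other 21 read between 0.9 and 86.0, and 18 of them stayed below 39.4 on every array. Among the 21 were all probe sets of the paralogs Rpl39l, Rps4l and Rps27l, of Rpl7l1, a ribosome assembly protein, and of Rpl35a, Rpl38, Rpl39, Rps13, Rps14, Rps15 and Rps20. A dim probe set need not mean a scarce mRNA: of the 5 for Rps4x, 1 read above 300 on all arrays and 4 were not tested. Rpl39 (9.8, 13.9 and 12.2 against knockout values of 14.3, 15.1 and 19.7) and Rps13 (13.5, 12.9 and 11.3 against 24.9, 17.1 and 32.8) did not overlap between the groups but lay below the filter. With no filter, 3.86% of all probe sets were higher in the knockout without overlap and 4.64% lower. Of the tested members, 21 read above 300 on all arrays and the other 7 below 300 on all arrays.

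**Figure D1:**
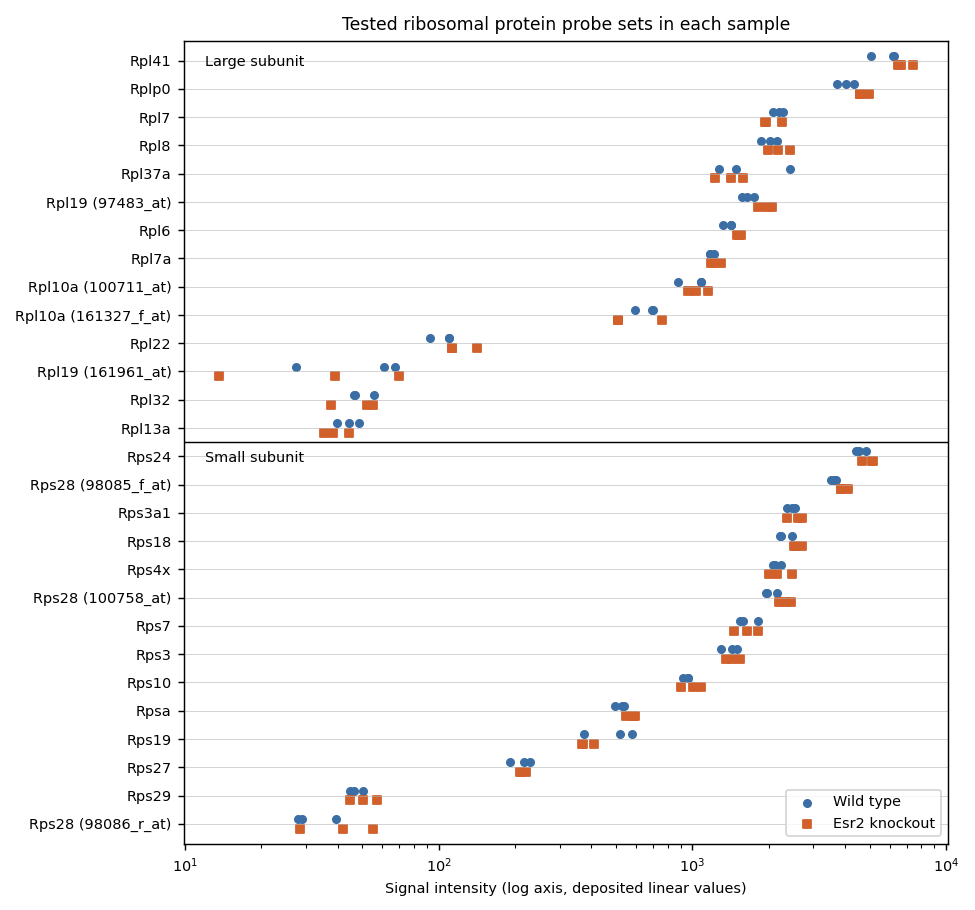
Deposited signal intensity (log axis) of the 28 tested probe sets in each of the 3 wild-type samples (circles) and 3 knockout samples (squares), large subunit above and small subunit below. The samples of most bright probe sets lie close together, with a wider spread for Rpl37a and Rps19 in wild type and for the dimmer of the Rpl10a probe sets in the knockout. The groups are apart for Rplp0, Rpl41 and Rpl6 but overlap for Rpl7a, Rps3 and Rps7.

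No ribosomal protein probe set passed the test between knockout and wild type. In limma, with Benjamini-Hochberg adjustment across the 6369 tested, 0 members had an adjusted p under 0.05, as did 0% of all probe sets, and the members' adjusted p ran from 0.923 to 0.996. The members that read highest against their replicate spread in the knockout were Rplp0, Rpl19 and Rpl41 of the large subunit, by 16.9%, 17.6% and 17.7%. Of the bright members, Rps19 of the small subunit had the largest negative difference, -22.1%. At an unadjusted p under 0.05 there were 3 members higher, all of the large subunit, where 2.81% of all probe sets were, and 0 lower, where 2.43% were. Without wild-type replicate 1 the count higher for the large subunit was 0, and without knockout replicate 2 or 3 it was 1. With quantile normalization or cyclic loess 0 members were higher and 1 of each subunit was lower.

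Both subunits leaned to higher readings in the knockout by a few percent under the deposited scaling, and the lean depended on that scaling. Of the 14 tested large subunit probe sets 8 were higher and 6 lower, with a median log2 difference of 0.053, and of the 14 small subunit probe sets 12 were higher and 2 lower, with a median of 0.081. With quantile normalization these medians were -0.0011 and 0.024, and with cyclic loess -0.0067 and -0.0075, while scaling to equal array medians gave 0.12 and 0.13. Over all tested probe sets 2983 were higher and 3386 lower, and the median was -0.016. Most members that passed the filter are bright, and the brightest probe sets as a whole leaned the same way. The median difference was -0.081 in the dimmest 20% of all tested probe sets and 0.054 in the brightest, where 65.4% were higher. The 21 members in that brightest 20% had a median of 0.067 with 76.2% higher, and the 7 dimmer ones had a median of 0.017. Single arrays decided part of this: the large subunit median was -0.0012 without wild-type replicate 3 and 0.087 without knockout replicate 1, and that of the 21 bright members was 0.017 without knockout replicate 2.

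**Figure D2:**
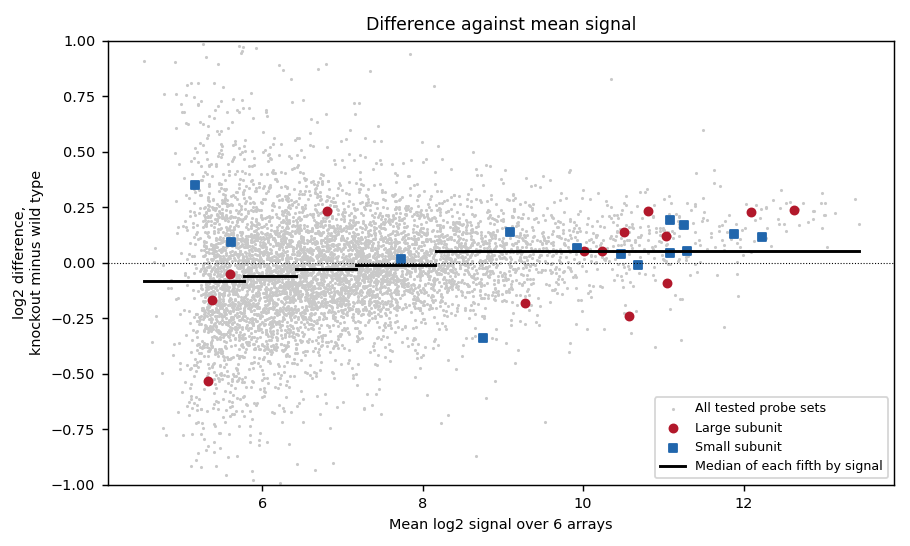
Log2 difference (knockout minus wild type) against mean log2 signal for 6369 tested probe sets (grey), with large subunit members as circles, small subunit members as squares and the median of each of 5 equal groups by signal as black bars. Most members lie in the brightest 20%, whose median is 0.054, and Rps19 lies below its neighbours; 33 probe sets beyond 1 in either direction are outside the axis.

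The samples of the groups did not overlap for 9 of the 28 tested members (32.1%), all higher in the knockout: Rplp0, Rpl41, Rpl6, Rpl19, Rpl22, Rps18, Rpsa and 2 probe sets of Rps28. Of all tested probe sets 5.45% were higher without overlap and 5.23% lower, and in the brightest 20% the shares were 11.9% and 1.88%. With quantile normalization, where the median of the brightest 20% was 0.0086, 1 member was higher without overlap (Rpl22, where 5.13% of all probe sets were) and 1 was lower (Rpl7, where 4.16% were). With cyclic loess it was the same pair, with 5.01% of all probe sets higher and 4.41% lower. Of the 28 members, 15 were then higher and 13 lower with quantile normalization, and 13 higher and 15 lower with cyclic loess.

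The lean was visible on single arrays. On the log2 scale, large subunit members deviated from their own 6-array means by a median of -0.015, -0.032 and -0.044 on the wild-type arrays and 0.026, 0.099 and 0.0065 on the knockout arrays. Small subunit members deviated by -0.083, -0.029 and -0.025 and by 0.056, 0.075 and 0.015. Every knockout array thus stood above every wild-type array for both subunits, and knockout replicate 2 was the highest. The brightest 20% of all probe sets had the same order of groups, with -0.032, -0.035 and -0.025 against 0.0073, 0.061 and 0.025, and was also highest on knockout replicate 2. Large minus small ranged from -0.019 to 0.067 in wild type and from -0.030 to 0.025 in the knockout, and these ranges overlapped.

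**Figure D3:**
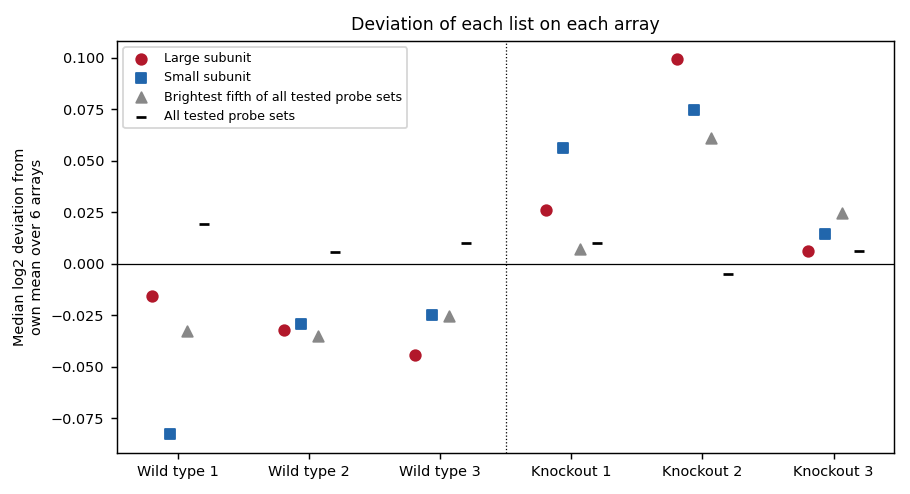
Median log2 deviation of a list from its members' own means over the 6 arrays, for each array, for the large subunit, the small subunit, the brightest 20% of all probe sets and all tested probe sets. Both subunits lie below 0 on the 3 wild-type arrays and above 0 on the 3 knockout arrays, as does the brightest 20%, and knockout replicate 2 is the highest of the 6 for all 3 lists.

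Counting members restated the deviations on single arrays, under the deposited scaling only. On wild-type replicates 1, 2 and 3, 9 of the 28 tested members (32.1%) each time were above their own mean. On the knockout arrays 19, 20 and 16 were (67.9%, 71.4% and 57.1%). In the brightest 20% of all probe sets, 41.1%, 41.4% and 43.3% were in wild type. In the knockout, 51.8%, 63.4% and 57.1% of them were. Over all tested probe sets the shares were 54.1%, 51.2% and 52.4%, and 51.8%, 49.2% and 51.4%. The 28 members summed to a signal of 44422 ± 1760 in the wild-type and 47819 ± 1865 in the knockout samples (SD, n = 3 per group). The groups did not overlap, with 46133 in wild-type replicate 2 and 46666 in knockout replicate 1 nearest to each other. As a share of all signal on the array it was 2.38 ± 0.068% and 2.48 ± 0.083%, and these shares overlapped. The total signal itself was 1836243 to 1877820 on the wild-type arrays and 1912066 to 1940919 on the knockout arrays. Skeletal muscle markers were also higher: they summed to 47394 to 59552 in wild-type and to 60136 to 64036 in knockout samples, with 7 of 9 tested probe sets higher, beside 65.4% of the brightest 20% of all probe sets, and 0 marker probe sets of any list at 0. The brightest probe sets carry such a sum. For Myh7 and Tnnt1 the brighter probe set had a positive log2 difference (0.069 and 0.17) and the dimmer one a negative difference. The dim one of Myh7 gave 133.8, 122.8 and 122.2 against knockout values of 91.3, 99.1 and 63.3 (log2 difference -0.60, limma adjusted p = 0.923). It was without overlap, where 5.23% of all tested probe sets were lower without overlap. The dimmer one of Tnnt1 read 1317 to 1884 and overlapped between the groups (log2 difference -0.22). In bulk tissue, the amount of a cell type and its RNA per cell cannot be told apart. The part of the muscle signal in the lean of ribosomal protein signals was not tested.

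Summed signals of the marker lists of 7 other cell types overlapped between the groups. Wild-type and knockout ranges were 761 to 809 and 685 to 776 for endothelial cells, 3344 to 4617 and 3045 to 3840 for adipocytes, and 674 to 963 and 702 to 793 for macrophages and leukocytes. Fibroblast markers summed to 5085 to 6477 and 5543 to 5745, smooth muscle markers to 503 to 578 and 545 to 575, and Schwann cell markers to 335 to 448 and 295 to 377. Erythroid markers reached 4667 in wild-type replicate 1 and lay between 1704 and 2328 on the other 5 arrays. Of the tested probe sets, 0 of 5 were higher in the knockout for adipocytes, 1 of 6 for endothelial cells, 0 of 3 for Schwann cells and 0 of 2 for erythroid cells. For fibroblasts 6 of 9 were higher, for macrophages and leukocytes 2 of 5, and for smooth muscle 2 of 3. Their part in the lean of ribosomal protein signals was not tested.

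Rplp0 anchors the acidic stalk that recruits elongation factors to the large subunit, and it was the only stalk member. Its 3 wild-type samples read 4043, 4359 and 3721, and the knockout samples 4585, 4996 and 4591. All knockout samples stood above all wild-type samples, with a log2 difference of 0.23 ± 0.086 (SE; limma adjusted p = 0.923). Quantile normalization brought the difference to 0.14 and cyclic loess to 0.080.

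Rpl41 encodes a very short basic protein at the subunit interface. Wild-type readings were 5076, 6240 and 6183 against knockout readings of 6492, 7423 and 6680, without overlap (log2 difference 0.24 ± 0.099 SE, limma adjusted p = 0.923). Its direction turned with scaling: the difference was -0.064 with quantile normalization and 0.073 with cyclic loess. Without wild-type replicate 1 it was 0.14. Its suffix marks probes shared with similar sequences.

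Rpl19, a large subunit protein that reaches the small subunit in a bridge, had 2 tested probe sets that differed. The bright one had wild-type values of 1575, 1646 and 1744 and knockout values of 2059, 1813 and 1966, without overlap (0.23 ± 0.092 SE on the log2 scale, limma adjusted p = 0.923). This difference was 0.15 with quantile normalization and 0.13 with cyclic loess, with overlap in both. The dim one had 61.0, 27.4 and 67.2 against 69.7, 13.6 and 38.9, with overlap (-0.54 ± 0.58). The lowest dim values of each group came from replicate 2, and without knockout replicate 2 the difference was 0.11.

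Rpl22, an RNA-binding protein with a further role in lymphocyte development, had wild-type values of 92.2, 109.5 and 110.2 and knockout values of 113.2, 141.4 and 112.9 in its tested probe set. The groups were narrowly apart, and the log2 difference was 0.23 ± 0.15 (SE; limma adjusted p = 0.958), or 0.25 with quantile normalization and 0.26 with cyclic loess. It was 0.13 without knockout replicate 2 and 0.15 without wild-type replicate 1. Its other probe set was below 39.4 on all knockout arrays and read 86.0, 66.2 and 26.6 in wild type, so it did not share the higher knockout readings. Rpl6 gave 1323, 1416 and 1426 against 1499, 1524 and 1563, 10.1% higher in the knockout (log2 difference 0.14 ± 0.087 SE), with no overlap; other scalings gave 0.069 (quantile) and 0.047 (cyclic loess), with overlap.

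The other large subunit members overlapped between the groups under the deposited scaling. Rpl8, a protein next to the catalytic centre, and Rpl7a had log2 differences of 0.12 and 0.053, and Rpl7a turned to -0.022 with quantile normalization and -0.031 with cyclic loess. Rpl10a, the protein of the stalk by which spent tRNA leaves, gave 0.053 in one probe set, which turned to -0.022 with cyclic loess, and -0.18 in the other. Rpl7 had wild-type values of 2271, 2073 and 2200 and knockout values of 1938, 2265 and 1951 (-0.091 ± 0.095 SE). Knockout replicate 2 lay within the wild-type range and the other knockout samples below it. With quantile normalization and with cyclic loess the Rpl7 difference was -0.20, without overlap. Of all probe sets 4.16% and 4.41% were lower without overlap under those scalings. The suffix of this probe set marks shared or incomplete probes, and the plain one of Rpl7 read 1.4 to 13.4 and was not tested. Rpl37a, a zinc-binding protein, gave -0.24 ± 0.21, and this rested on wild-type replicate 2 at 2427, where the other 5 arrays read 1234 to 1586; without it the difference was 0.031. The dim probe sets of Rpl13a, which also takes part in translational silencing in inflammation, and of Rpl32 gave -0.17 and -0.052.

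**Figure D4:**
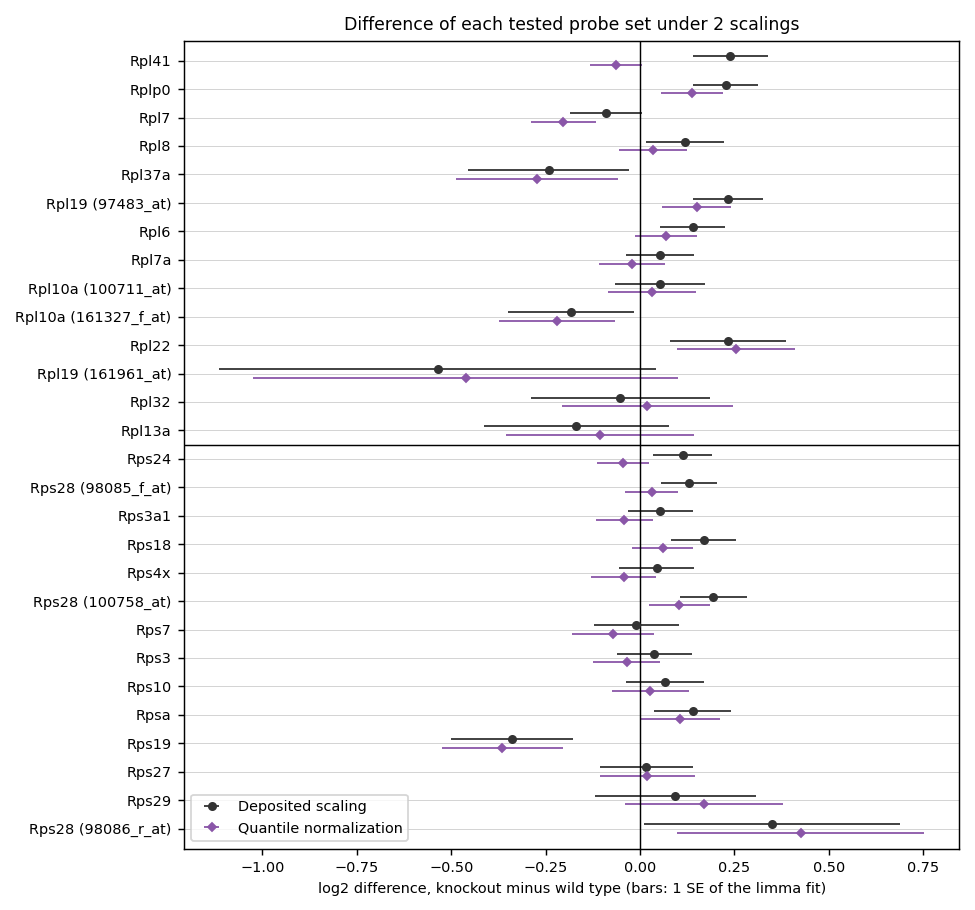
Log2 difference, knockout minus wild type, of the 28 tested probe sets with 1 standard error of the limma fit, under the deposited scaling (circles) and after quantile normalization (diamonds). With quantile normalization the bright members shift toward lower differences (Rpl41 from 0.24 to -0.064), and Rps19 stays lower under both (-0.34 and -0.36).

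Among the small subunit proteins, Rps28 sits where the mRNA leaves and had 3 tested probe sets, all higher. The first gave 1953, 2162 and 1969 against knockout values of 2311, 2445 and 2203. The next, with probes shared with similar sequences, gave 3521, 3674 and 3606 against 4101, 3875 and 3847. Both were apart between the groups, with log2 differences of 0.19 ± 0.088 and 0.13 ± 0.074 (SE), while the last, a dim one, overlapped at 0.35 ± 0.34. With quantile normalization and cyclic loess the first was at 0.10 and 0.082 and the next at 0.031 and -0.0099, all with overlap. These probe sets target 1 gene and are not independent evidence. The limma adjusted p was 0.923 for the first and 0.958 for the others.

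Rps19 had the largest negative difference of the bright members. This protein of the head is needed to mature the small subunit's RNA, and its mutation causes Diamond-Blackfan anaemia. Wild-type samples gave 520.4, 375.7 and 576.0 and knockout samples 369.8, 368.7 and 408.4. The knockout samples were close together and the wild-type samples were not: replicate 2 lay within the knockout range and the other wild-type samples above it. The log2 difference was -0.34 ± 0.16 (SE; limma adjusted p = 0.923), and it was negative under every alternative run, between -0.52 and -0.21. On the 4 arrays sharing a title prefix, which leave out replicate 2 of each group, it was -0.49 (limma adjusted p = 0.469). The size rested partly on single wild-type samples: it was -0.52 without replicate 2 and -0.21 without replicate 3.

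The other tested head proteins had positive differences under the deposited scaling. Rps18, which contacts the large subunit, gave 2217, 2243 and 2469 against knockout values of 2556, 2508 and 2720, without overlap (log2 difference 0.17 ± 0.086 SE, limma adjusted p = 0.926). It was 0.060 with quantile normalization and 0.050 with cyclic loess, with overlap in both. Rps10 and the zinc-binding Rps29 gave 0.067 and 0.094, with overlap, and Rps10 turned to -0.0051 with cyclic loess and -0.016 over the 4 arrays. Rpsa, the laminin receptor precursor, gave 536.0, 498.0 and 527.1 against 581.5, 545.8 and 592.6, apart by 0.14 ± 0.10 (SE), or 0.11 and 0.097 with overlap under those scalings. Rps3, at the mRNA entry and also a DNA repair protein, gave 0.038, and Rps24, Rps27, Rps3a1 and the X-linked Rps4x gave 0.11, 0.017, 0.054 and 0.045. Of these, Rps3, Rps24, Rps3a1 and Rps4x turned negative with both normalizations: -0.035, -0.046, -0.041 and -0.044 with quantile normalization, and -0.054, -0.038, -0.066 and -0.068 with cyclic loess. Rps7 gave -0.0094 ± 0.11 (SE). The Rps24 value came from a probe set with a suffix for shared or incomplete probes. The plain probe set of Rps24 read 15.7 to 31.0 and was not tested.

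The spread among replicates was a few percent for most bright members. The median coefficient of variation of the 21 members in the brightest 20% was 5.75% over wild-type and 6.46% over knockout samples, and that of the whole brightest 20% was 9.12% and 9.38%. The tightest in wild type was a probe set of Rps28 (2.13%) and in the knockout Rpl6 (2.09%). The widest of the bright members in wild type was Rpl37a at 35.5%, through its replicate 2, and next was Rps19 at 21.1%. Standard errors of the log2 differences had a median of 0.10 over the tested members and 0.18 over all tested probe sets. In the brightest 20% the median was 0.099 over the 21 members and 0.125 over all probe sets there. With 3 samples a group, the smallest two-sided p of an exact permutation test is 0.1.

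Members of both probe set types were tested. Of 34 members with a plain suffix 21 were tested, with a median log2 difference of 0.054, and of 15 with a suffix for shared or incomplete probes 7 were tested, with a median of 0.11. Ribosomal protein genes have many near-identical processed pseudogenes, so the assignment of any of these signals to 1 locus is uncertain. The 39 probe sets left out for their several symbols are a further reading of the same family. Of these, 32 were tested, 20 were higher and 12 lower, and the median was 0.0098. Without overlap, 5 of the 32 were higher and 0 lower, where 5.45% and 5.23% of all tested probe sets were. In the brightest 20%, which held 24 of the 32, the shares were 11.9% and 1.88% and the median was 0.054. The list of 39 was added after the members' values were seen.

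Genes of translation and ribosome production outside the family had medians on both sides of 0. Of 38 tested probe sets of translation factors 17 were higher and 21 lower, with a median of -0.039 (0.028 with median scaling), and 0 passed the adjusted test. Without overlap, 3 of the 38 were higher and 2 lower, where 5.45% and 5.23% of all tested probe sets were. Eef1a2, the elongation factor form of adult muscle, gave 4953, 5833 and 5971 against knockout values of 7287, 6146 and 6818 (log2 difference 0.27 ± 0.098 SE, limma adjusted p = 0.923), without overlap. Tpt1, whose mRNA also starts with a pyrimidine tract, was at 0.15. Eif5b, which joins the subunits, gave 76.5, 65.6 and 82.2 against 52.3, 40.6 and 52.3 (-0.63 ± 0.20 SE), and Eif3e read 126, 123 and 124 against 79.1, 101.6 and 94.4 (-0.45 ± 0.15 SE), both without overlap and both at an adjusted p of 0.923 in limma.

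Genes of ribosome assembly and rRNA synthesis had 11 of 25 tested probe sets higher and a median of -0.052, with 0 passing. That median turned positive with each of the 3 normalizations tried (0.0034 to 0.015), with a filter at the 70th percentile (0.035) and without wild-type replicate 2 (0.010). The assembly factors Tsr1 and Nop2 gave 0.40 ± 0.14 and 0.96 ± 0.37 (SE), and the polymerase I subunits Polr1b and Polr1c -0.23 and -0.18. Nop2 read 52.9, 19.7 and 54.5 in wild type, near the filter. S6 kinases and mTOR inputs had 6 of 9 higher and a median of 0.13, with Larp1, which binds pyrimidine-tract mRNAs, at 0.16 and Rps6kb2 at 0.44; Tsc1 and Mtor gave -0.089 and -0.075. Without wild-type replicate 2 that median was -0.018. Mitochondrial ribosomal proteins, encoded in the nucleus but assembled in the organelle, had 38 of 67 higher and a median of 0.030. Mrps12 was at 0.55 ± 0.18 and Mrpl16 at 0.25 ± 0.12, and Mrpl48 and Mrpl43 at -0.50 ± 0.19 and -0.23 ± 0.13 (SE). Fau, which encodes a small subunit protein fused to a ubiquitin-like one, was not tested; it gave 40.5, 37.5 and 17.7 against knockout values of 30.9, 28.9 and 24.5.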

How the data were processed

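The authors' deposited values are signal intensities on a linear scale, 1 per probe set and array; the sources used here name no software behind them. The members and gene lists were chosen with earlier results of these data known. Values under the 20th percentile, 7.8, were set to it and taken to log2. Probe sets above the median, 39.4, on 3 of 6 arrays were tested with limma 3.58.1 in R 4.3.3 (eBayes with an intensity trend), two-sided, adjusted over all 6369. The step was tested on simulated data. Named members were those with the smallest p, up to 6 per direction and subunit, the stalk, laminin receptor and paralog members, genes whose probe sets differ by over 0.5, and up to 2 per direction of each related list; the other members named were chosen after their values were seen. Lists were described by counts and medians only. Symbols came from the array annotation; a RefSeq look-up changed 0. Alternatives were 3 normalizations, 2 floors, 2 filters, no trend, array weights, 2 blocks from sample titles and each array left out; a fit of the 4 arrays with a common title prefix was chosen after their values were known. The number of arrays limits the precision. Figures used matplotlib 3.10.9 in Python 3.11.15.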

Additional observations from a re-analysis of the deposited data

How the results depend on the processing

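Under every alternative 0 members passed the adjusted test, and the lowest adjusted p of a member was 0.469, over the 4 arrays sharing a title prefix. The large subunit median of 0.053 became -0.0011 with quantile normalization, -0.0067 with cyclic loess, 0.12 with median scaling (where all tested probe sets had a median of 0.051) and 0.12 with the filter at the 70th percentile. The small subunit median of 0.081 became 0.024, -0.0075 and 0.13 under those 3 normalizations. With 1 array left out the medians ran from -0.0012 (without wild-type replicate 3) to 0.087 for the large subunit, from -0.049 to 0.010 (without wild-type replicate 2) for ribosome assembly genes and from -0.018 (without wild-type replicate 2) to 0.18 for S6 kinases and mTOR inputs. The ribosome assembly median was 0.014 with quantile normalization, 0.015 with median scaling, 0.0034 with cyclic loess and 0.035 with the 70th percentile filter; that of translation factors was 0.028 with median scaling; that of S6 kinases and mTOR inputs was 0.0074 over the 4 arrays. The 9 members higher without overlap became 1 with quantile normalization or cyclic loess. The 3 large subunit members higher at an unadjusted p under 0.05 became 0 with either, or without the intensity trend, and the small subunit's 0 became 3 with median scaling or no filter. Members changed sign. With quantile normalization Rpl32 was at 0.019, Rpl41 at -0.064, Rpl7a at -0.022, Rps24 at -0.046, Rps3 at -0.035, Rps3a1 at -0.041 and Rps4x at -0.044. With cyclic loess the brighter Rpl10a probe set was at -0.022, Rpl32 at 0.019, Rpl7a at -0.031, Rps10 at -0.0051, Rps24 at -0.038, the brightest Rps28 probe set at -0.0099, Rps3 at -0.054, Rps3a1 at -0.066 and Rps4x at -0.068. With median scaling Rpl32 was at 0.016 and Rps7 at 0.058, and over the 4 arrays Rpl32 at 0.074, Rpl37a at 0.13, Rps10 at -0.016 and Rps4x at -0.0097. Among the members named by rule, Rpl32 was at 0.0100 with array weights, and with 1 array left out the brighter Rpl10a probe set ran from -0.044 to 0.11, the dim Rpl19 probe set from -1.07 to 0.11, Rpl32 from -0.15 to 0.12, Rpl37a from -0.43 to 0.031 and Rps7 from -0.086 to 0.074. The cause of these moves was not tested. The labels give no shared replicate numbers, but adjacent numbers in the titles join 1 sample of each group; with these pairs as a block, and with the title prefix as a block, both subunit medians kept their values and 0 members passed (lowest adjusted p of a member 0.864 and 0.774).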
